A study of Mus musculus with 60 samples.

Results

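The transition from the 4-cell to the 8-cell stage was examined in mouse embryos that developed in the female tract. It was read from 3 single in vivo 4-cell embryos and 3 single in vivo 8-cell embryos, chosen by their stage labels, which are 6 of the 60 libraries of a series that followed in vivo, NTC and NTM embryos through 6 stages. The in vivo embryos were BDF1, from superovulated C57BL/6 females mated with DBA2 males. NTC embryos were made by transfer of a BDF1 cumulus cell nucleus, and NTM embryos by transfer of a BDF1 mouse embryonic fibroblast (MEF) nucleus. In both the nucleus was put into an enucleated oocyte of a BDF1 female. By the study's methods, both types were activated with strontium chloride, cytochalasin B and Scriptaid, kept on in Scriptaid and then cultured in vitro. Each library is 1 embryo and the embryos' sex was not given, so every p-value below measures the spread between single embryos. The values were RPKM, read numbers scaled by transcript length and by the library's total, for 27238 genes, of which 10417 had a mean of at least 0.5 RPKM over the 6 libraries and were tested.

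Between these stages the mouse embryo has left maternal control behind. Oocyte messages have mostly been cleared, the embryo's own genome has been switched on, and the blastomeres are about to flatten against each other (compaction), to acquire an outer and an inner face and to divide into outer cells that will form trophectoderm and inner cells that stay pluripotent. In the cleavage embryo mitochondrial DNA replication is largely held back, and ribosomes are built anew once the embryonic genome is active. Because a library was made from a whole embryo and scaled to its own total, fewer molecules per embryo and a smaller share of the total cannot be told apart. The study's methods describe an ERCC spike-in of known RNAs in every sample, which was not used here, so no value is scaled to it.

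The 3 in vivo 4-cell libraries stood apart from every other library of the series. Of the tested genes, 1074 (10.3%) had all 3 in vivo 4-cell values above the values of all 57 other libraries, whereas the same count was 0 to 101 in the other embryo groups, 208 in cumulus cells and 168 in MEFs. The tested genes were filtered on the in vivo 4-cell and 8-cell libraries, so genes high only in other groups were left out. Of the other groups only the in vivo 8-cell embryos, with 17 such genes, shared that filter. These 1074 genes had a median of 42.9 RPKM in the in vivo 4-cell embryos, 2.55 in the 8-cell embryos, 0.731 in the 2-cell embryos and 2.5 in the morulae. In 109 of them the lowest 4-cell value was at least 10 times the highest value of any other library. Their transcripts were short, with a median of 1880 nt against 2848 nt over all tested genes. Since the 4-cell side of the comparison consists of these libraries, no value without them could be had, and a difference in how these 3 libraries were prepared or counted cannot be told apart from the stage. The number of genes that stood apart is given beside each gene group.

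Depth was of the same order in both stages. The reads on genes, worked out from the step size of low values, were 13148899, 14899567 and 16323451 in the 4-cell embryos and 14312585, 20727845 and 5802776 in the 8-cell embryos. Genes with at least 1 RPKM numbered 9566, 9268 and 8917 at the 4-cell stage and 6118, 5767 and 5422 at the 8-cell stage. Mitochondrial genes took 8.873%, 6.877% and 5.683% of the reads at the 4-cell stage and 32.08%, 35.72% and 45.05% at the 8-cell stage. Both measures separated the stages with no overlap (exact permutation test, two-sided p = 0.1, the smallest that 3 against 3 can give). In the nuclear transfer embryos the stages lay closer, with a mean mitochondrial share of 33.1% and 37.58% in NTC embryos and, for NTM, of 35.28% and 40.78%. Across the tested genes, log2 values of 2 embryos of the same stage correlated with a Pearson r of 0.903 to 0.929 (4-cell) and 0.839 to 0.872 (8-cell), and embryos of different stages with 0.639 to 0.707. Genes are not independent replicates, and these coefficients are a description.

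**Figure D1:**
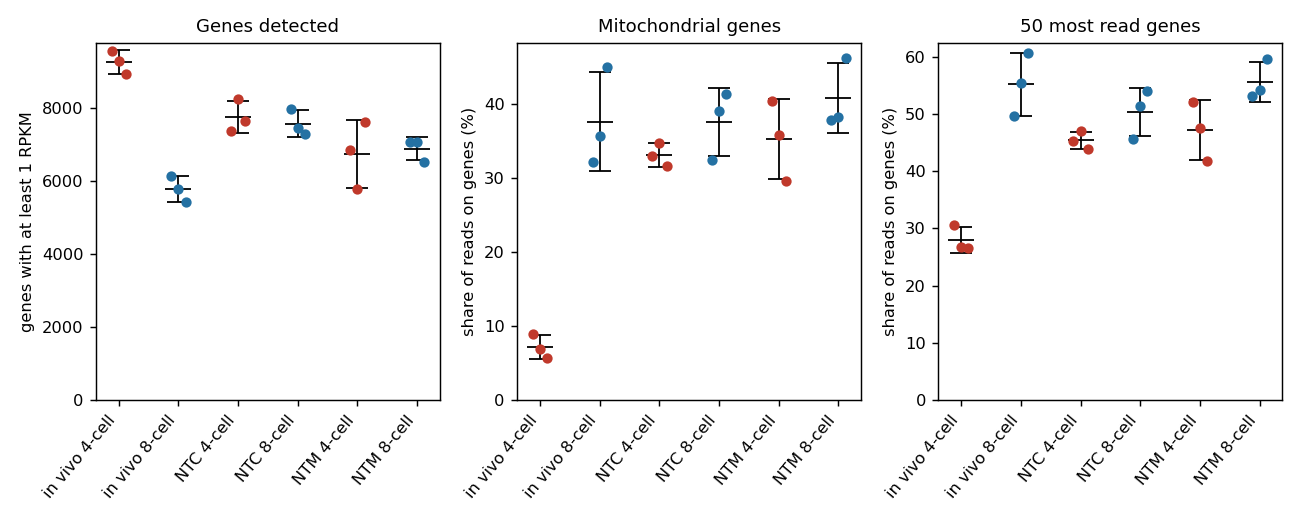
Genes with at least 1 RPKM (left), share of reads on mitochondrial genes (middle) and share of reads on the 50 most read genes (right) in 4-cell (red) and 8-cell (blue) embryos of each type, 1 point per embryo with mean and SD (n = 3). The in vivo 4-cell embryos had 5.683% to 8.873% mitochondrial reads and the lowest value of any other group plotted was 29.64%.

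The embryos were also checked against marker genes. The 9 cleavage-embryo markers averaged at least 1 RPKM in both stages. Cumulus and granulosa cell markers summed to 19.5 to 40.5 RPKM at the 4-cell and 2.05 to 9.9 RPKM at the 8-cell stage, against 1510 to 2200 in the cumulus cell libraries. They also summed to 1120 to 1740 RPKM in MEFs, so the sum does not single out cumulus cells. Of these 23 markers, 14 were at 0 in all 3 4-cell and 15 in all 3 8-cell embryos, among them *Foxl2*, *Fshr* and *Inha* in both. At the 4-cell stage 4 averaged at least 1 RPKM. *Amhr2* averaged 17.1 RPKM there and 1.80 RPKM at the 8-cell stage, and was called lower as deposited. Fibroblast markers summed to 14.3 to 23.6 and 1.37 to 3.4 RPKM, against 11200 to 16000 in MEFs. Markers of blood cells and epithelium summed to 23.5 to 56.0 and 14.3 to 20.1 RPKM. Of the 13 with values, 6 were at 0 in all 3 4-cell and 9 in all 3 8-cell embryos, among them the leukocyte marker *Ptprc*. All 3 sums were higher in the 4-cell embryos. Their part in the results was not tested.

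From the 4-cell to the 8-cell stage, 458 genes rose (4.40% of those tested) and 4096 fell (39.3%), and the median gene was 1.05 lower on the log2(RPKM + 1) scale. A call required a Benjamini-Hochberg adjusted p under 0.05 in limma and a log2 change of at least 1. The values of the 2 stages did not overlap in 454 of the risen and 4073 of the fallen genes, against 717 (6.88%) and 5076 (48.7%) of all tested genes. Of the risen genes 102 had at least a 10-fold higher mean, and of the fallen genes 2255 had at least a 10-fold lower one. Among the fallen genes 360 were at 0 in all 3 8-cell embryos, while 3 of the risen genes were at 0 in all 3 4-cell embryos. Over all 10417 tested genes these counts were 909 and 87. Among the fallen genes 1039 (25.4%) were ones that stood apart in the 4-cell embryos, and 3057 were not.

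How many genes are counted as fallen depended on what the libraries were scaled to. The median log2 change over all tested genes was -1.05 as deposited, -0.66 with nuclear genes scaled to equal sums, -0.34 with median-ratio scaling and 0.30 with each library centred within bins of transcript GC content. With nuclear genes scaled to equal sums 874 genes (8.39%) were higher and 2559 (24.6%) lower, with median-ratio scaling 1297 (12.5%) and 1792 (17.2%), and with GC centring 1686 (16.3%) and 1197 (11.5%). The risen share of the called genes was 10.1% as deposited and 25.5%, 42% and 58.5% in the others. The GC centring shifted log2(RPKM + 1) values at or near 0 along with all others in their bin. Genes near 0 in both stages could thus appear to rise, and falls to 0 appear smaller. Under all 4 scalings together, 454 genes were called higher (4.36%) and 1119 lower (10.7%). The median of a gene list is therefore read against that of all genes. The lists of cytosolic ribosomal proteins, chaperonins and heat shock proteins, replication, DNA methylation, histone variants, p53 and autophagy lay below the median of all genes as deposited and above it in at least 1 other scaling, and every other list with 10 or more tested members kept its side in all 4. Counts of list members called under all 4 scalings are given below beside the counts as deposited. They are to be read against the shares of all tested genes. As deposited these were 4.40% higher and 39.3% lower, and under all 4 scalings 4.36% and 10.7%. Fold changes of single genes are on the scale as deposited. A gene is named as risen or fallen without further remark only where it was called under all 4 scalings. Every other scaling moved the median log2 change upward from that as deposited, so this requirement was strict for falls but hardly tested rises. Of the 458 genes called higher as deposited 454 met it, and of the 4096 called lower 1119 did.

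**Figure D2:**
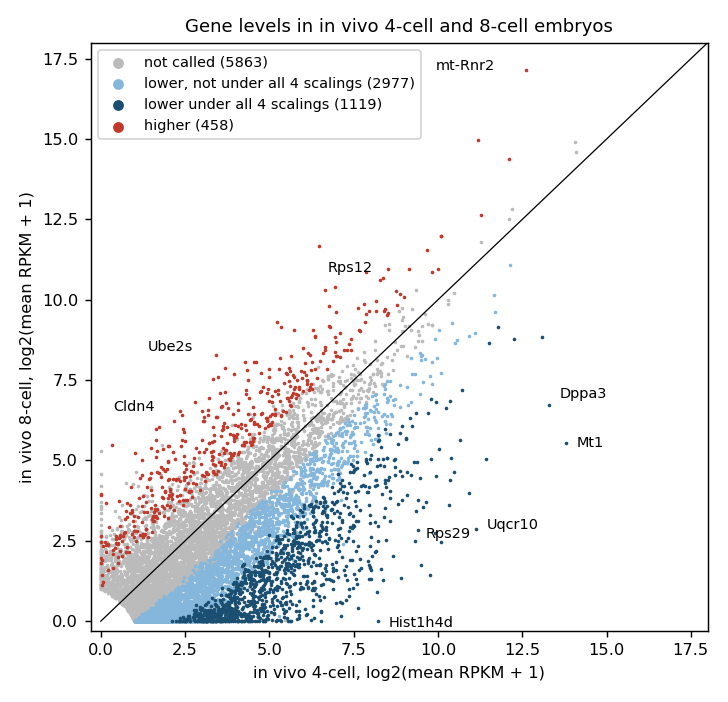
Mean RPKM of each tested gene in in vivo 4-cell (x) and 8-cell (y) embryos as log2(mean RPKM + 1), with genes called higher in red, genes called lower under all 4 scalings in dark blue and the other lower calls in light blue. Below the diagonal lie *Mt1* (310-fold lower mean at the 8-cell stage) and *Uqcr10* (359-fold lower), and above it *Ube2s* (32.1-fold higher) and *mt-Rnr2* (23.3-fold higher), the highest point.

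Several of the largest falls were in genes with very high 4-cell values. *Mt1*, a metallothionein that binds zinc and copper, read 13700, 16100 and 12700 RPKM in the 4-cell and 42.2, 41.7 and 53.3 RPKM in the 8-cell embryos, a log2 change of -8.25 ± 0.16 (SE, adjusted p = 3.37e-07). Its neighbour *Mt2* read 866, 968 and 753 RPKM and then 1.38, 1.65 and 2.17 RPKM (-8.31 ± 0.27, adjusted p = 3.9e-06). The means differed 310-fold for *Mt1* and 498-fold for *Mt2*. *Dppa3* (Stella), a maternal factor that protects DNA methylation in the zygote, read 12400, 8280 and 9150 RPKM and then 93.1, 132 and 90 RPKM (-6.55 ± 0.21). Outside the in vivo 4-cell embryos, its highest group mean in the series was 105 RPKM. *Hist1h4d*, a replication-dependent histone H4 gene, read 426, 223 and 244 RPKM and was at 0 in all 3 8-cell embryos, at least 1170-fold lower when a floor of 3 reads over the 3 libraries is used. *Hist1h2ap*, a histone H2A gene, read 1250, 317 and 603 RPKM and then 2.9, 4.1 and 0 RPKM. Histone cluster genes have near-identical copies, so reads may be split between them.

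Other genes among the 15 largest falls were *Tubb4b* (beta tubulin, 909, 1320 and 1070 RPKM at the 4-cell and 6.09, 4.99 and 2.31 RPKM at the 8-cell stage), *Wdr74* (a nucleolar protein, 567, 458 and 412 against 2.15, 2.09 and 0.43 RPKM) and *Imp3* (a small subunit processome protein, 193, 162 and 239 against 0.605, 0.365 and 0 RPKM). *Obox8*, an oocyte-specific homeobox gene, read 1500, 977 and 414 and then 6.65, 3.27 and 7.09 RPKM. All 4 stood apart in the 4-cell embryos. *Eci1*, an enzyme of fatty acid oxidation, read 170, 154 and 137 and then 0.064, 0.221 and 1.42 RPKM (-6.72 ± 0.41, adjusted p = 3e-05).

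The promoters of *Mt1* and *Mt2* are shown because the pair fell furthest together and because the metal response element that drives metallothioneins has a known core. The windows run from 250 bases before to 50 bases after the RefSeq start (GRCm38.p6), both on the + strand: chr8:94178839-94179138 for *Mt1* and chr8:94172368-94172667 for *Mt2*. Capitals mark matches to TGCACNC or TGCGCNC on either strand.
Mt1: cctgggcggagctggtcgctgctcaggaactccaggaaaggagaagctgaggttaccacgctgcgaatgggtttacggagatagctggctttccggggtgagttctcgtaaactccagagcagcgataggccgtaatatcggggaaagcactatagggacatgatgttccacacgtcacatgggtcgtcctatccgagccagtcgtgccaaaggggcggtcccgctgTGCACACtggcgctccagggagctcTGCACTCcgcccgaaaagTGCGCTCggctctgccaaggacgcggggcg
Mt2: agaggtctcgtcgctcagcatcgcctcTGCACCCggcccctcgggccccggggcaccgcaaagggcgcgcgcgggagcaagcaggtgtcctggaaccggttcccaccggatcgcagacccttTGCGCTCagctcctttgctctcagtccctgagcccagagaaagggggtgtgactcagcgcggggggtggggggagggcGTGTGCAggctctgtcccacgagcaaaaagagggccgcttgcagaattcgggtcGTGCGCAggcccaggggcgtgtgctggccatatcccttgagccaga
The *Mt1* window held 3 matches and the *Mt2* window 4. At least 1 match was present in 25.7% of the 32851 promoters in the table, at least as many as in *Mt1* in 1.97%, and at least as many as in *Mt2* in 0.517%. A match is a string of letters and not an occupied site.

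The respiratory chain is encoded in both the nuclear and the mitochondrial genome, and the genes of each are given in turn. Of 75 tested nuclear genes of the respiratory chain and ATP synthase, 54 were lower and 2 higher (32 and 2 under all 4 scalings, 33 standing apart), with a median log2 change of -2.24 against -1.05 for all genes. The list's median stayed below that of all genes in every scaling, by 0.85 to 1.25. *Uqcr10*, a subunit of complex III, read 2360, 2100 and 2290 RPKM at the 4-cell and 11.1, 5.04 and 2.66 RPKM at the 8-cell stage (-8.45 ± 0.41, adjusted p = 1.58e-05). *Ndufa2* of complex I read 472, 266 and 244 and then 1.95, 1.18 and 1.21 RPKM, and *Atp5a1*, the alpha subunit of ATP synthase, 180, 303 and 283 and then 3.52, 1.89 and 0.715 RPKM. These 3 genes had no overlapping values. The higher members were *Uqcrb*, at 18, 25.2 and 24 RPKM and then 62.3, 78.5 and 69.1 RPKM, and *Atp5g3*, at 32.6, 29.8 and 30.8 RPKM and then 65.8, 84.8 and 57.9 RPKM, whose log2 change of 1.12 dropped to 0.97 without 8-cell embryo 2.

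Of the 15 tested genes of the mitochondrial genome, 7 were higher and 3 lower (7 and 2 under all 4 scalings, 2 standing apart), with a median of 1.32, and the median was above that of all genes in every scaling. *mt-Rnr2*, the 16S ribosomal RNA, read 7560, 5800 and 5370 RPKM at the 4-cell and 121000, 152000 and 163000 RPKM at the 8-cell stage (4.55 ± 0.15, adjusted p = 3.9e-06). *mt-Nd2*, a complex I subunit, read 2700, 2360 and 1890 and then 30800, 28500 and 36800 RPKM, and *mt-Co1*, a complex IV subunit, 4390, 5050 and 3800 and then 17600, 16400 and 30700 RPKM. The 4-cell values of these 3 genes lay below all 8-cell values. *mt-Nd1* did not pass the test, at 24300, 15700 and 12700 RPKM and then 20300, 21500 and 32900 RPKM (0.52 ± 0.25, adjusted p = 0.129). *mt-Nd6* had the largest rise of all the named genes (5.26 ± 0.34), from 133, 57.9 and 72.9 to 4470, 2490 and 2920 RPKM, but it lies on the other strand from its neighbours and the strand setting of the counting is not given in the sources used here. *mt-Atp8* (208, 212 and 168 RPKM and then 18.2, 15.4 and 12.7 RPKM) and *mt-Nd4l* (4.35, 4.75 and 3.71 RPKM and then 0) were lower, and both overlap a neighbouring gene. At the 2-cell stage *mt-Rnr2* averaged 8910 RPKM, *mt-Nd2* 13200 RPKM and *mt-Co1* 21100 RPKM, so of these 3 *mt-Rnr2* had the 2-cell mean nearest to its 4-cell values.

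Mitochondrial ribosomal proteins, which translate the messages of that genome, are encoded in the nucleus. Of 76 tested, 52 were lower and 1 higher (23 and 1 under all 4 scalings, 32 standing apart), with a median of -1.59. *Mrpl57* read 300, 248 and 223 RPKM and then 1.72, 0.998 and 1.71 RPKM. The higher member, *Mrpl14*, read 7.05, 5.94 and 5.16 RPKM and then 11.3, 22.4 and 21.6 RPKM (1.41 ± 0.39, adjusted p = 0.0208), and its call ended without 4-cell embryo 2 (adjusted p = 0.0612), 4-cell embryo 3 (0.0679) or 8-cell embryo 2 (0.0615).

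The genes of the cytosolic ribosome went both ways. Of 79 tested, 44 were lower and 15 higher, 22 and 15 under all 4 scalings, and 38 stood apart in the 4-cell embryos. Their median of -1.19 lay 0.15 below that of all genes as deposited but 0.01 to 0.24 above it in the other 3 scalings. *Rps29* read 670, 544 and 689 RPKM and then 5.95, 4.59 and 3.23 RPKM (-6.85 ± 0.29, adjusted p = 1.42e-05). *Rpl28* read 208, 193 and 198 and then 2.35, 2.31 and 1.31 RPKM, and *Rpl3* 259, 400 and 373 and then 23.3, 21.1 and 15 RPKM. Each of these 3 was over 10 times lower at the 8-cell stage. *Rps12* went the other way, from 114, 121 and 129 to 1210, 1340 and 1500 RPKM (3.46 ± 0.16, adjusted p = 1.58e-05). *Rpl10* read 187, 246 and 500 and then 1760, 1500 and 1420 RPKM, and *Rpl17* 301, 337 and 348 and then 1510, 1760 and 1670 RPKM. The 8-cell values of these 3 lay above all 4-cell values. *Rplp0*, a stalk protein, did not pass the test, at 873, 832 and 995 and then 641, 395 and 756 RPKM (-0.64 ± 0.24, adjusted p = 0.0638), and its log2 change was above 0 in the other 3 scalings.

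A ribosome holds its proteins in equal number, and the spread between their genes shows how even the values were. The SD of log2(RPKM + 1) over the 79 genes was 1.89 to 1.94 in the in vivo 4-cell embryos and 2.48 to 2.99 in the other embryo groups from the 4-cell stage on, and 2.18 to 2.51 in the cumulus cells and MEFs. Under 10 RPKM there were 2 of the 79 genes in each in vivo 4-cell embryo, and 6 to 26 in the embryos of the other later groups. *Rps29* averaged 8.88 RPKM in MEFs. Ribosomal protein genes have many processed pseudogenes, and how reads that fit several copies were counted is not given in the sources used here, so levels of single members are uncertain.

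**Figure D3:**
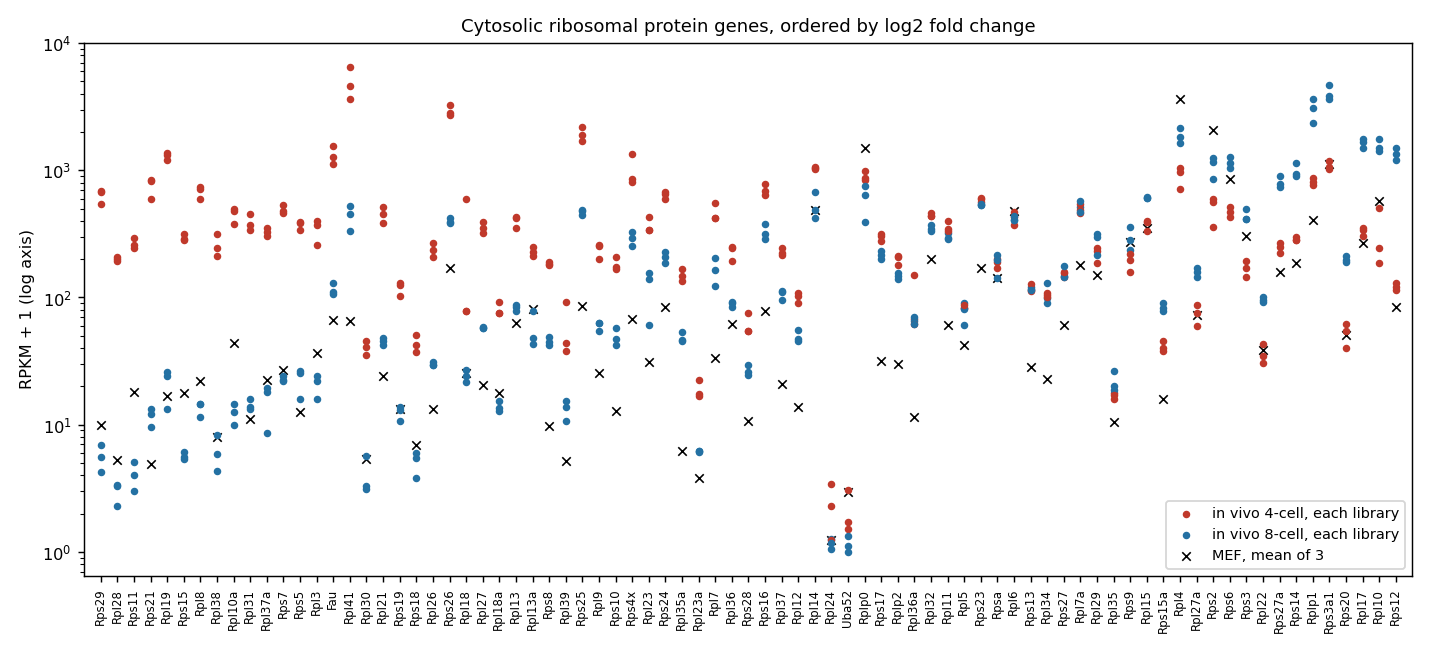
RPKM + 1 (log axis) of the 79 cytosolic ribosomal protein genes ordered by log2 fold change, with each in vivo 4-cell embryo in red, each 8-cell embryo in blue and the MEF mean as a cross. *Rps29* at the left fell from 544 to 689 RPKM to 3.23 to 5.95 RPKM and *Rps12* at the right rose from 114 to 129 RPKM to 1210 to 1500 RPKM.

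Nucleolar and translation genes were compared next. Of 77 tested genes of ribosome assembly and RNA polymerase I, 42 were lower and 2 higher (16 and 2 under all 4 scalings, 20 standing apart), with a median of -1.41 that lay below the median of all genes in every scaling by 0.02 to 0.36. *Polr1d*, a subunit of RNA polymerases I and III, read 180, 153 and 198 RPKM and then 1.58, 0.698 and 0.849 RPKM. *Taf1d*, a cofactor of RNA polymerase I, rose from 132, 164 and 110 to 609, 585 and 310 RPKM (1.84 ± 0.30, adjusted p = 0.00226). *Npm1*, nucleophosmin, was at 2570, 2500 and 2440 and then 3580, 4440 and 2780 RPKM, a log2 change of 0.50 that is under the fold required.

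Translation initiation factors had a higher median than the ribosomal and nucleolar lists. Of 44 tested, 19 were lower and 4 higher (6 and 4 under all 4 scalings, 10 standing apart). Their median of -0.58 was 0.47 above that of all genes, and was above 0 in the other 3 scalings (0.26, 0.83 and 0.78). *Eif4a1*, the helicase that unwinds leader sequences, rose from 47.4, 100 and 85.9 to 599, 661 and 351 RPKM (2.79 ± 0.36, adjusted p = 0.000694). *Eif4g2* rose from 109, 116 and 148 to 1050, 784 and 521 RPKM, and *Eif2s2*, the beta subunit of eIF2, from 366, 336 and 367 to 687, 825 and 708 RPKM. The fourth, *Eif1ax*, was higher at 80.5, 113 and 63.2 RPKM than at the 4-cell stage, where 1 embryo had 48.2 RPKM and the others 15.5 and 14 RPKM. Without 4-cell embryo 1, 4-cell embryo 2 or 8-cell embryo 2 it was no longer called (adjusted p = 0.0732, 0.0722 and 0.0555), and without 8-cell embryo 2 the log2 change of *Eif2s2* was 0.97. *Eif4e*, the cap-binding protein, read 638, 484 and 506 and then 183, 124 and 156 RPKM, a call (adjusted p = 0.000515) that was not made under all 4 scalings.

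Protein quality control genes were also called in both directions. Of 32 proteasome genes 19 were lower and 2 higher (11 and 2 under all 4 scalings, 15 standing apart), with a median of -1.83. *Psmb5*, a catalytic subunit, fell from 790, 584 and 657 to 6.66, 8.2 and 3.56 RPKM, and *Psmd8*, a lid subunit, rose from 95.2, 123 and 148 to 367, 338 and 288 RPKM. *Psma1*, an outer ring subunit, did not pass the test at 144, 159 and 168 and then 183, 197 and 158 RPKM (adjusted p = 0.47). Of 30 chaperonin and heat shock genes 16 were lower and 3 higher (5 and 3 under all 4 scalings, 6 standing apart), median -1.22. *Cct8*, a subunit of the ring chaperonin that folds tubulin and actin, fell from 319, 297 and 338 to 2.19, 2.87 and 1.12 RPKM, and the constitutive *Hspa8* from 791, 996 and 1140 to 23.1, 29 and 13.2 RPKM. *Hsp90aa1* rose from 313, 352 and 428 to 1730, 3120 and 1110 RPKM, and its co-working DnaJ protein gene *Dnaja1* from 85.5, 90.4 and 149 to 858, 1180 and 631 RPKM. The stages did not overlap in any of these 4 chaperone genes.

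Of 47 spliceosome genes 30 were lower and 0 higher (17 and 0 under all 4 scalings, 16 standing apart), with a median of -1.79 that was below that of all genes in every scaling. *Snrpd1*, a core Sm protein, fell from 463, 335 and 408 to 3.26, 3.11 and 2.88 RPKM (-6.61 ± 0.28, adjusted p = 1.42e-05). *Sf3b1*, which recognises the branch site, read 63.5, 78.8 and 85.5 and then 79.9, 61.2 and 30.1 RPKM (adjusted p = 0.315). Of 41 genes of RNA polymerase II and Mediator 24 were lower and 1 higher (11 and 1 under all 4 scalings, 13 standing apart), median -1.70. *Med31* fell from 193, 159 and 214 to 0.889, 0.446 and 3.19 RPKM, and *Med21* rose from 39.4, 36.1 and 30.2 to 65.1, 87.5 and 100 RPKM (1.22 ± 0.28, adjusted p = 0.0103). The 2 genes code for subunits of the same complex.

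Of 64 mitosis genes 37 were lower and 2 higher (19 and 2 under all 4 scalings, 10 standing apart), median -1.52. *Plk1*, a mitotic kinase, fell from 106, 200 and 185 to 1.05, 0.768 and 0.392 RPKM, and *Cdk1*, the kinase that starts mitosis, from 156, 156 and 189 to 8.8, 7.8 and 3.05 RPKM. Its partner *Ccnb1* was at 844, 684 and 692 and then 603, 387 and 278 RPKM, a log2 change of -0.87 that is under the fold required and that was 0.56 with median-ratio scaling. *Rad21*, a ring subunit of cohesin, rose from 114, 59.1 and 70.7 to 499, 484 and 426 RPKM (2.57 ± 0.27, adjusted p = 0.000307). *Ube2s*, an E2 enzyme that extends ubiquitin chains for the anaphase-promoting complex, had the largest rise of a nuclear gene, from 6.76, 9.86 and 12.5 to 343, 307 and 285 RPKM (4.90 ± 0.30, adjusted p = 3e-05). Of 54 replication genes 26 were lower and 1 higher (5 and 1 under all 4 scalings, 6 standing apart), median -1.20. *Pcna*, the sliding clamp, fell from 87.9, 86.7 and 71.2 to 2.04, 2.33 and 1.15 RPKM, while *Mcm2*, a helicase subunit, was at 9.89, 23.3 and 14.5 and then 19.5, 25.8 and 17.7 RPKM (adjusted p = 0.38).

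**Figure D4:**
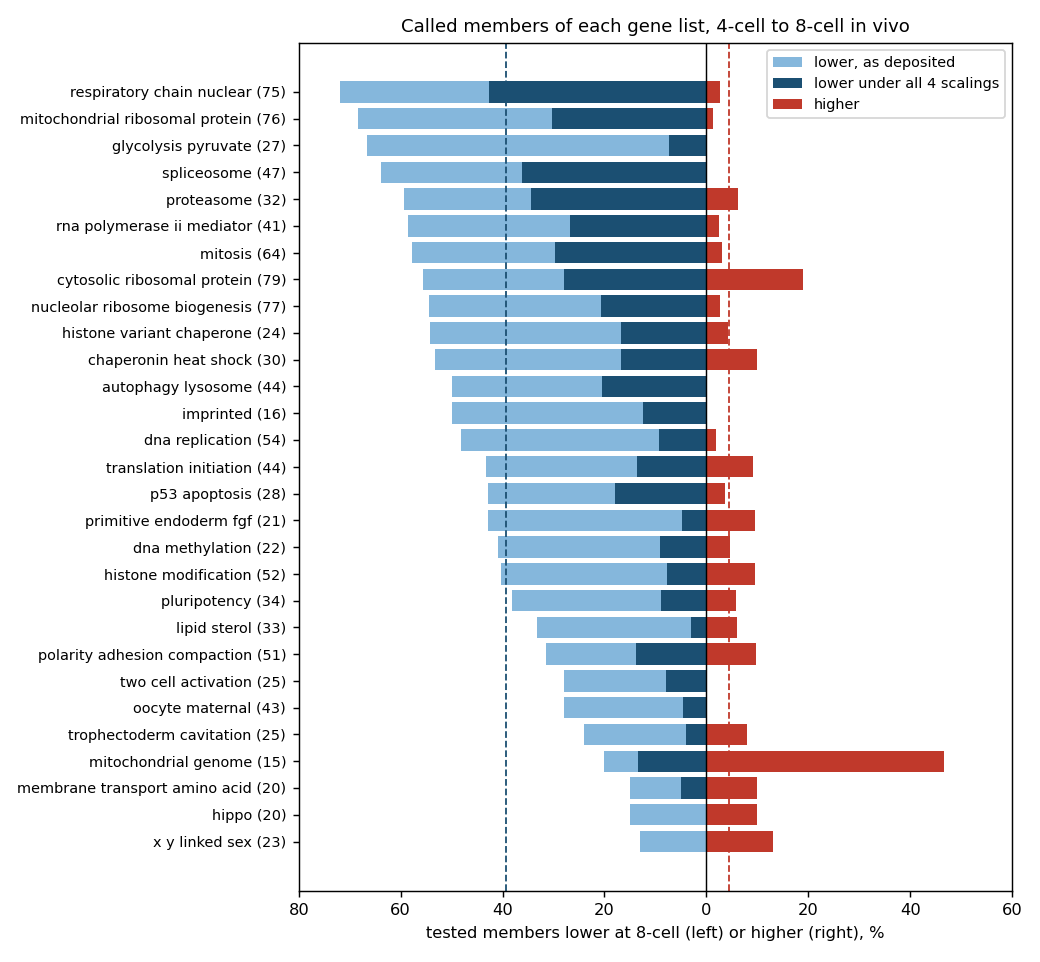
Share of the tested members (number in brackets) of each gene list with 10 or more tested members called lower (left) or higher (right) from the 4-cell to the 8-cell stage, with the dark part of the left bars for calls under all 4 scalings and dashed lines at the shares over all tested genes (39.3% lower, 4.40% higher). The nuclear respiratory chain had the largest share of lower members (54 of 75) and the mitochondrial genome the largest share of higher members (7 of 15).

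Genes of compaction and epithelial polarity were called in both directions. Of 51 tested, 5 were higher and 16 lower (5 and 7 under all 4 scalings, 3 standing apart), and the median of -0.77 was 0.28 to 0.66 above that of all genes across the scalings. *Cldn4*, a tight junction claudin, rose from 2.51, 5.99 and 4.49 to 69.3, 100 and 82.8 RPKM (4.04 ± 0.37, adjusted p = 0.000166). *Actg1*, gamma actin of the cell cortex, rose from 20.2, 28.9 and 28.8 to 173, 291 and 173 RPKM, and *Arpc2*, a subunit of the actin-branching Arp2/3 complex, from 38, 48.2 and 46.9 to 227, 109 and 297 RPKM. *Amot*, an angiomotin that links polarity to Hippo signalling, rose from 1.29, 0.863 and 0 to 7.09, 9.23 and 19.4 RPKM. All 4 were separated without overlap. *Cldn7* fell from 38.7, 55.6 and 48.9 to 0.825, 0.495 and 0.354 RPKM, and *Myl12b*, a myosin light chain, from 131, 108 and 95.1 to 0.735, 1.52 and 2.01 RPKM. Beta actin, *Actb*, fell from a mean of 247 to 17.2 RPKM. Other Arp2/3 subunit genes went both ways. *Arpc5* rose from a mean of 34.6 to 85.6 RPKM, while *Arpc3* fell from 14.8 to 0.833 RPKM and *Arpc5l* from 39.5 to 3.53 RPKM. *Actb* and these other subunits were named after their values were seen. *Cdh1*, E-cadherin, the adhesion molecule of compaction, read 6.42, 4.27 and 9.76 and then 9.3, 8.08 and 13.1 RPKM (0.55 ± 0.41, adjusted p = 0.305).

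Of 20 genes of the Hippo pathway, which tells outer from inner cells, 2 were higher and 3 lower (2 and 0 under all 4 scalings, 0 standing apart), median -0.49. *Wwtr1* (TAZ), a nuclear effector, read 4.63, 10.8 and 12.9 and then 21.1, 17.7 and 30.5 RPKM (1.27 ± 0.45, adjusted p = 0.0489), and its partner *Yap1* 3.8, 3.42 and 4.94 and then 7.63, 7.91 and 19.8 RPKM (1.22 ± 0.45, adjusted p = 0.0596). Both had 8-cell values above all 4-cell values and fell on opposite sides of the threshold. The call of *Wwtr1* was lost without any 1 of the 6 embryos (adjusted p from 0.0556 to 0.12). Their DNA-binding partner *Tead4* was lower as deposited, at 28.6, 31.9 and 24.8 and then 5.2, 3.69 and 4.45 RPKM, but not under all 4 scalings. Of 25 trophectoderm genes 2 were higher and 6 lower (2 and 1 under all 4 scalings, 1 standing apart), median -0.47. *Klf5*, a factor needed for trophectoderm, rose from 37.3, 69.7 and 58.8 to 158, 265 and 125 RPKM (1.68 ± 0.36, adjusted p = 0.0075, or 0.0571 in 1 fit over all 20 groups). *Cdx2* was at 0 in the 4-cell embryos and at 0, 0.384 and 0.229 RPKM in the 8-cell embryos, below the filter on low values, and *Gata3* at 0, 0.54 and 0.4 and then 0.0176, 2.17 and 0.26 RPKM. A change in either was not detectable at these levels.

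Of 34 pluripotency genes 2 were higher and 13 lower (2 and 3 under all 4 scalings, 4 standing apart), with a median of -0.91 that lay above that of all genes in every scaling by 0.02 to 0.58. These shares as deposited (5.88% and 38.2%) were near those of all tested genes (4.40% and 39.3%). *Klf4* rose from 2.97, 8.61 and 8.24 to 44, 30.8 and 36.5 RPKM (2.42 ± 0.43, adjusted p = 0.0033). *Klf2* was higher, at 71, 42.7 and 26.7 RPKM against 23.8, 17 and 13.6 RPKM, and lay close to the threshold (adjusted p = 0.0447), and its call was lost without any 1 embryo other than 8-cell embryo 3 (adjusted p from 0.0597 to 0.139). *Klf17* was lower as deposited, at 230, 340 and 263 and then 13.4, 0.422 and 45.7 RPKM, with 8-cell values that spread widely. *Nanog* read 7.5, 13.1 and 17 and then 20.5, 22.2 and 1.38 RPKM, with 1 of the 8-cell embryos below all 4-cell embryos (adjusted p = 0.805). *Pou5f1* (Oct4) read 1.79, 3.28 and 3.62 and then 2.92, 9.06 and 4.06 RPKM (adjusted p = 0.321). *Dppa5a* fell from 1910, 1380 and 1760 to 138, 129 and 164 RPKM and stood apart at the 4-cell stage.

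The FGF signal that later separates epiblast from primitive endoderm is sent by *Fgf4* and read by *Fgfr2*. *Fgf4* fell from 17.8, 43.3 and 17.9 to 0.0922, 1.1 and 0.114 RPKM (-4.20 ± 0.50, adjusted p = 0.000513). *Fgfr2* rose from 3.62, 4.54 and 1.39 to 11.6, 10.5 and 9.81 RPKM, and *Gata6*, a primitive endoderm factor, from 9.1, 8.66 and 18.1 to 36.5, 59.8 and 20 RPKM (1.56 ± 0.48, adjusted p = 0.0317). The ligand and the receptor thus moved in opposite directions. The call of *Fgfr2* was lost without 4-cell embryo 3 (adjusted p = 0.0566), and that of *Gata6* without 4-cell embryo 1 or 2 or 8-cell embryo 1 or 2 (adjusted p = 0.105, 0.11, 0.0651 and 0.0919). Of the 21 tested genes of this list 2 were higher and 9 lower (2 and 1 under all 4 scalings, 0 standing apart), median -0.96. The lower share of 42.9% was near the 39.3% of all tested genes, and the higher share was 9.52% against 4.40%.

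Of 52 histone-modifying genes 5 were higher and 21 lower (5 and 4 under all 4 scalings, 8 standing apart), and their median lay 0.10 to 0.34 above that of all genes. The lower share of 40.4% was near the 39.3% of all tested genes, and the higher share was 9.62% against 4.40%. Of the Polycomb complex that methylates lysine 27 of histone H3, *Suz12* rose from 67.5, 43.4 and 46.3 to 593, 479 and 514 RPKM (3.33 ± 0.24, adjusted p = 6.1e-05) and *Eed* from 49.9, 50 and 84.8 to 163, 243 and 155 RPKM. The catalytic subunit *Ezh2* read 21.5, 10.3 and 12.5 and then 13.1, 9.57 and 11.9 RPKM (adjusted p = 0.572). The paired deacetylases went opposite ways. *Hdac2* rose from 11.1, 13.2 and 10.7 to 57.4, 105 and 47.8 RPKM and *Hdac1* fell from 267, 242 and 241 to 47.9, 22.1 and 25.8 RPKM (-3.01 ± 0.32, adjusted p = 0.000321), so that *Hdac1* was above *Hdac2* in every 4-cell embryo and below it in every 8-cell embryo. Both values are per kilobase, but whether levels of different genes can be compared in these libraries was not tested. The crossing of *Hdac1* and *Hdac2* is therefore a description of the values.

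Among 22 genes of DNA methylation 1 (4.55%) was higher and 9 (40.9%) lower, near the 4.40% and 39.3% of all tested genes. Under all 4 scalings 1 and 2 were called, 3 stood apart, and the median was -1.15. *Mbd3*, of the NuRD complex, rose from 4.55, 10 and 12.7 to 81.1, 71.3 and 41.1 RPKM, and *Dnmt3l*, a cofactor of the de novo methyltransferases, fell from 25.4, 19.4 and 15.1 to 0.444, 0.404 and 0.404 RPKM. *Dnmt1*, the maintenance enzyme, read 5.3, 3.25 and 5.01 and then 3.8, 0.0536 and 3.58 RPKM (adjusted p = 0.26). Among 24 histone variants and chaperones 1 was higher and 13 lower (1 and 4 under all 4 scalings, 4 standing apart), median -1.23. The nucleosome assembly proteins diverged, *Nap1l1* from 71.7, 85.2 and 87 to 555, 511 and 294 RPKM and *Nap1l4* from 68.7, 61.3 and 70.3 to 0.122, 0.127 and 0.151 RPKM. At the 4-cell stage all 3 values of *Nap1l4* lay just below those of *Nap1l1*.

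Maternal genes stored in the oocyte were listed next. Of 43 tested 12 (27.9%) were lower and 0 higher, against 39.3% and 4.40% of all tested genes (2 and 0 under all 4 scalings, 1 standing apart), with a median of -0.97, close to that of all genes. *Zbed3*, of the subcortical maternal complex, read 24.4, 68.5 and 34.5 and then 2.55, 1.68 and 6.55 RPKM, after a 2-cell mean of 1670 RPKM, and *Tcl1*, a cofactor of AKT kinase, 15.6, 9.86 and 11.9 and then 1.36, 0.183 and 0.747 RPKM, after 517 RPKM. Of 25 tested genes of the 2-cell burst 7 were lower and 0 higher (2 and 0 under all 4 scalings, 1 standing apart), median -0.94. *Tdpoz4* fell from 102, 48.5 and 55.4 to 0.502, 0 and 0 RPKM. *Zscan4d*, which marks the 2-cell embryo, averaged 178 RPKM at the 2-cell stage and read 2.29, 0 and 1.36 and then 0.0913, 0 and 0 RPKM, where no change was detectable.

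In nutrient supply, *Slc6a8*, the creatine transporter, rose from 2.85, 3.32 and 6.34 to 45.9, 46.3 and 36.9 RPKM (3.14 ± 0.37, adjusted p = 0.000506), and *Slc3a2*, the heavy chain of amino acid exchangers, fell from 66.7, 72.2 and 62.9 to 1.23, 1.71 and 0.732 RPKM. Of 20 transport genes 2 were higher and 3 lower (2 and 1 under all 4 scalings, 0 standing apart), median -0.63. Of 33 genes of lipid and sterol metabolism 2 were higher and 11 lower (2 and 1 under all 4 scalings, 0 standing apart), median -0.88, and *Scd2*, a fatty acid desaturase, rose from 0.558, 0 and 0.483 to 3.87, 3.64 and 4.01 RPKM. Of 27 glycolysis and pyruvate genes 18 were lower and 0 higher (2 and 0 under all 4 scalings, 2 standing apart), median -1.45. *Aldoa*, aldolase, fell from 42.3, 81.2 and 36.5 to 1.77, 0.99 and 1 RPKM.

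In the p53 and cell death list 12 of 28 (42.9%) were lower and 1 (3.57%) higher, near the 39.3% and 4.40% of all tested genes. Under all 4 scalings 5 and 1 were called, 2 stood apart, and the median was -1.29. *Trp53*, p53 itself, fell from 32.4, 88.1 and 47.5 to 8.83, 3.96 and 0.426 RPKM and its target *Cdkn1a* (p21) from 49, 45.6 and 48.7 to 1.13, 0.977 and 4.81 RPKM (-4.07 ± 0.48, adjusted p = 0.000473). Of 44 autophagy and lysosome genes 22 were lower and 0 higher (9 and 0 under all 4 scalings, 9 standing apart), median -1.33. *Map1lc3b*, which coats the autophagosome, fell from 577, 489 and 532 to 52, 47.6 and 54.6 RPKM. Of 16 tested imprinted genes 8 were lower and 0 higher (2 and 0 under all 4 scalings, 0 standing apart), median -1.37, and *Phlda2* fell from 118, 39.9 and 6.39 to 0.738, 0.0637 and 0.455 RPKM.

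Genes linked to the sex chromosomes split by embryo. *Eif2s3y*, on the Y chromosome, read 21.8, 24.1 and 0.0147 RPKM in the 4-cell and 0 in all 8-cell embryos, and *Ddx3y* 5.46, 13.1 and 0.0118 and then 0, 0 and 0.0331 RPKM. *Xist* on the X chromosome read 0, 0.00374 and 6.89 and then 0.117, 0.202 and 4.54 RPKM. The Y-linked values were thus high in 2 of the 3 4-cell embryos and in none of the 8-cell embryos, and a change with stage cannot be told apart from the embryos' sex for genes on these chromosomes. Of the 23 tested genes of this list 3 were higher and 3 lower (3 and 0 under all 4 scalings, 0 standing apart), median -0.69. *Hprt*, a purine salvage enzyme, rose from 806, 758 and 1710 to 4640, 4240 and 3200 RPKM. On the whole X chromosome 26 of 363 tested genes were higher and 76 lower, with a median of -0.66.

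Several transcription regulators and other genes were among the 15 largest rises. *Klf10*, a TGF-beta-induced factor, rose from 1.05, 0.771 and 10.4 to 53.2, 115 and 106 RPKM (4.66 ± 0.73, adjusted p = 0.00174). *Ybx3*, a Y-box RNA-binding protein, rose from 8.51, 14.8 and 12.1 to 232, 234 and 234 RPKM, *Dnajc21*, a ribosome assembly chaperone, from 39.2, 28.1 and 41.6 to 629, 604 and 684 RPKM, and *Selenot*, a selenoprotein of the endoplasmic reticulum, from 49.7, 28.9 and 40.5 to 528, 589 and 582 RPKM. The 8-cell values of these 3 genes lay close together and far above all 4-cell values. *Csrp1*, a cytoskeletal LIM protein, rose from 4.43, 5.87 and 7.3 to 66.6, 85.5 and 181 RPKM. *Gkap1* rose from 1.65, 1.9 and 2.7 to 65.5, 52.8 and 67.4 RPKM, after a 2-cell mean of 910 RPKM.

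A cluster of KRAB zinc finger genes on distal chromosome 4 held a group of rises. *Zfp987*, *Zfp988* and *Zfp989* were among the 15 largest rises, and the cluster was picked after their values were seen, so its counts are a description. KRAB zinc finger proteins bind DNA, often within transposable elements, and recruit repressors. Of the 15 tested *Zfp* genes there 7 were higher and 1 lower (median 0.71), against 4 higher and 69 lower of 190 tested *Zfp* genes elsewhere (median -1.01). *Zfp987* rose from 1.68, 1.17 and 3.49 to 64.3, 41.5 and 39.1 RPKM (4.02 ± 0.42, adjusted p = 0.000273), *Zfp988* from 2.53, 0.527 and 2.36 to 57.3, 35.9 and 29.5 RPKM, *Zfp534* from 5.98, 3.19 and 4.57 to 95.3, 48.2 and 29.3 RPKM and *Zfp985* from 14.6, 10.7 and 11 to 74.2, 151 and 104 RPKM. The lower member, *Zfp978*, read 17.3, 18.7 and 15 and then 2.66, 3.11 and 0.134 RPKM. Members of the cluster are near copies of each other, and reads could be split between them.

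The promoters of these 4 risen members are shown because they share a run of letters. Windows are as above (RefSeq, GRCm38.p6): chr4:146097062-146097361 (+) for *Zfp987*, chr4:147305354-147305653 (+) for *Zfp988*, chr4:147702582-147702881 (-) for *Zfp534* and chr4:147553027-147553326 (+) for *Zfp985*. Capitals mark the 32-base run common to all 4.
Zfp987: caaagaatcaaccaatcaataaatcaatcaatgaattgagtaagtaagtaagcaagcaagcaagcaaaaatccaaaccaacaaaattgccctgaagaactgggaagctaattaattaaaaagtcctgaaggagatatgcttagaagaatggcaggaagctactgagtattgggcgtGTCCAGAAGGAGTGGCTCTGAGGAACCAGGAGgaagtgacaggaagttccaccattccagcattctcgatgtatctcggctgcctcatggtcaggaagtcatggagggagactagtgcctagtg
Zfp988: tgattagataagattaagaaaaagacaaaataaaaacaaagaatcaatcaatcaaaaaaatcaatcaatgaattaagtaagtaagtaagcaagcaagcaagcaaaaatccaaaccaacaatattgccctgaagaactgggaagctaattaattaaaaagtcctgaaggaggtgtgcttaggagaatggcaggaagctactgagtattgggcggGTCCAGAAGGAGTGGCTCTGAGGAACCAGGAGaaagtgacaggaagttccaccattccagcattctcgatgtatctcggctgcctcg
Zfp534: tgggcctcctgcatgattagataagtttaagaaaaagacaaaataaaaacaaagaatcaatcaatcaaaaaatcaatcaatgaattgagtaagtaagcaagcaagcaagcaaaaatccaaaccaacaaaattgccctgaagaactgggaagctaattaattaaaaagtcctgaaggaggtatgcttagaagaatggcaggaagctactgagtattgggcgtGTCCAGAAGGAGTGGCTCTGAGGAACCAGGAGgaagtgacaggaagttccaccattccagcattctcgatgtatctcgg
Zfp985: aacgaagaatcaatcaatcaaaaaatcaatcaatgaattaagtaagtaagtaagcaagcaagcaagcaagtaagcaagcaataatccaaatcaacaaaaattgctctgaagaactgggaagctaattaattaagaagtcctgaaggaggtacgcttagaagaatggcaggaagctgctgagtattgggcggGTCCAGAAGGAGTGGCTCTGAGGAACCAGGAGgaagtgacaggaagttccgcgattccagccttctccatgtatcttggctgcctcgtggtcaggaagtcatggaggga
No other promoter among the 32851 in the table held the run (4 promoters, 0.012%), and none of the 8 other cluster genes looked up by name did. *Zfp989* and *Zfp978* were not among those 8. The run was found as the longest string common to these 4 promoters, so its rarity elsewhere is a description and not a test. The first 3 share a longer run of 49 bases.

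The position of the 4-cell stage among the neighbouring stages differed between the risen and the fallen genes. The comparisons with the 2-cell and the morula embryos share the 4-cell or the 8-cell libraries, so these are descriptions. Of the 458 risen genes, 172 (37.6%) had a 2-cell mean at least 2 times their 4-cell mean, as for *Suz12* (533 RPKM at the 2-cell stage) and *Gkap1*. In 45 (9.83%) of the risen genes, *Gkap1* among them, the 2-cell mean was at least 2 times the 8-cell mean as well. In 307 (67.0%) both the 2-cell and the 4-cell mean were at most 0.5 times the 8-cell mean, as for *Cldn4* (0.227 RPKM) and *Klf5* (1.65 RPKM). Of the 4096 fallen genes, 2943 (71.9%) had a 2-cell mean at most 0.5 times their 4-cell mean. In 463 (11.3%) the 2-cell mean was at least 2 times the 4-cell mean, as for *Zbed3* and *Tcl1*. Fallen genes were called on high values in these same 4-cell libraries and risen genes on low ones. That choice alone favours a 2-cell mean below the 4-cell mean in fallen genes and above it in risen genes. The shares over all tested genes were not worked out, so a peak or dip beyond this was not tested. With 1 RPKM added to each mean, the morula mean was within 2-fold of the 8-cell mean in 370 (80.8%) of the risen and 3359 (82.0%) of the fallen genes. The fallen genes had a median 8-cell mean of 1.01 RPKM, and at such low levels the added 1 RPKM makes this range easy to meet.

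**Figure D5:**
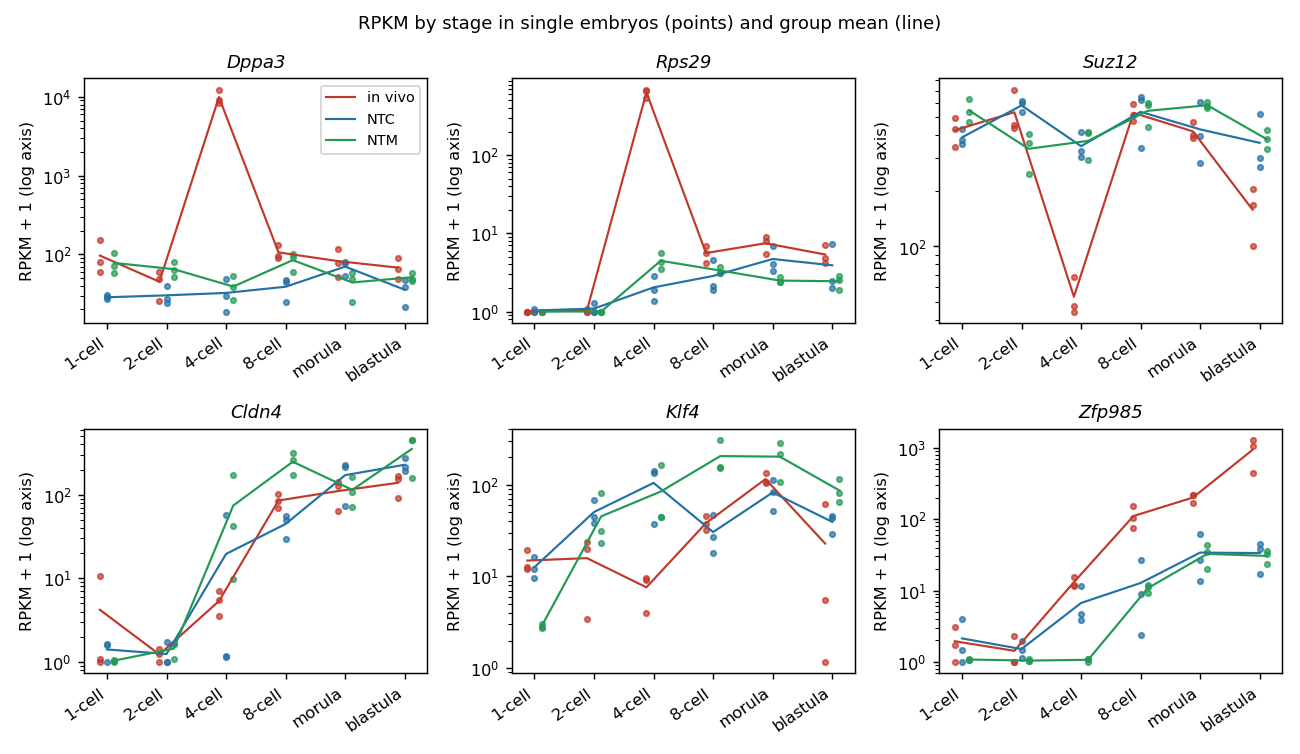
RPKM + 1 (log axis) at 6 stages for 6 genes, 1 point per embryo and a line through group means for in vivo (red), NTC (blue) and NTM (green) embryos. *Dppa3* and *Rps29* peak in the in vivo 4-cell embryos alone, *Suz12* dips there, and *Cldn4*, *Klf4* and *Zfp985* are higher at the in vivo 8-cell than at the 4-cell stage.

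The same transition in nuclear transfer embryos called few genes. In NTC embryos 0 genes were higher and 6 lower (0% and 0.0564% of 10634 tested, 1139 at an unadjusted p under 0.05), and in NTM embryos 17 and 18 (0.176% and 0.187% of 9632 tested, 1092 at an unadjusted p under 0.05). With 1 fit over all 20 groups, which has many more libraries to estimate the spread, NTC had 279 higher and 283 lower genes and NTM 195 and 299. Leaving out 1 embryo moved these counts. In NTC embryos they were 0 and 0 without any 1 of the 4-cell embryos, and 1 and 7, 0 and 1, and 0 and 2 without 8-cell embryo 1, 2 or 3. In NTM embryos they were 25 and 15, 5 and 2, and 8 and 4 without 4-cell embryo 1, 2 or 3, 0 and 0 without 8-cell embryo 1 or 3, and 0 and 1 without 8-cell embryo 2. These libraries are independent of the in vivo ones. Of the genes that rose in vivo, 57.9% had a higher mean log2 value at the 8-cell stage in NTC (n = 447) and 62.5% in NTM embryos (n = 456), against 41.6% and 41.4% of all genes tested in both. Of the genes that fell in vivo, 63.7% were lower in NTC (n = 3457) and 66.6% in NTM embryos (n = 3279), against 58.4% and 58.6% of all. Across genes, the log2 changes correlated with those in vivo with a Pearson r of 0.15 in NTC (8635 genes) and 0.21 in NTM (8271 genes), a description over genes that are not independent.

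Some genes moved alike in all 3 embryo types. Of the risen genes, 6 (1.31%, against 0.595% of all tested) had all 6 nuclear transfer 8-cell values above all 6 nuclear transfer 4-cell values: *Amot*, *Slc6a8*, the BMP target *Id3*, *Smpdl3a*, the mitochondrial phosphatase *Ppm1k* and *B230118H07Rik*. *Id3* rose in vivo from 25.8, 29.2 and 34.7 to 119, 170 and 155 RPKM, and its means went from 3.24 to 31.9 RPKM in NTC and from 6.27 to 72.6 RPKM in NTM embryos. *Amot* went from 0.0415 to 4.26 RPKM in NTC and from 0 to 2.67 RPKM in NTM embryos. Of the fallen genes, 72 (1.76%, against 1.25%) had all 6 nuclear transfer 8-cell values below, among them *Zbed3*, *Tcl1*, the histone H3 kinase *Haspin* and the exosome subunit *Exosc1*. *Haspin*, in vivo at 20.5, 32.1 and 22.7 and then 3.01, 0.738 and 1.41 RPKM, went from 60.5 to 15.4 RPKM in NTC and from 33.8 to 4.8 RPKM in NTM embryos. *Id3*, *Smpdl3a*, *Ppm1k*, *B230118H07Rik*, *Haspin* and *Exosc1* were named after their values were seen. In vivo, *Ppm1k* lost its call without 4-cell embryo 1 or 2 or 8-cell embryo 1 or 3 (adjusted p from 0.0732 to 0.129), and *Smpdl3a* without 4-cell embryo 1 or 8-cell embryo 2 or 3 (adjusted p from 0.0515 to 0.0723). The opposite pattern held for 4 risen genes (0.873%, against 1.25%) and 13 fallen genes (0.317%, against 0.595%).

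Whether the in vivo change differed from that in nuclear transfer embryos was tested with an interaction term. Against NTC, 277 genes (2.49% of 11108 tested) changed more positively and 1886 (17%) more negatively in vivo, and against NTM 236 (2.24% of 10551) and 1741 (16.5%). Both tests use the same 6 in vivo libraries. Leaving replicate 1, 2 or 3 out of all 4 groups left 131, 98 and 136 more positive and 900, 643 and 943 more negative genes against NTC, and 57, 49 and 148 and 625, 406 and 1252 against NTM. Against both, 119 genes were more positive and 1207 more negative, and 708 (58.7%) of the latter were genes that stood apart in the in vivo 4-cell embryos. *Uqcr10* had a difference of -8.61 against NTC, where its means were 3.96 and 5.14 RPKM, and *Dppa3* of -6.87, with means of 31.4 and 37.8 RPKM. *Hspa8* fell in vivo and had higher 8-cell means in both NTC (19.4 and 68.4 RPKM) and NTM embryos (37.3 and 86 RPKM), with a difference of -7.29 against NTC (adjusted p = 6.53e-06). On the positive side, *Ube2s* had a difference of 5.08 against NTC (133 and 124 RPKM) and 4.48 against NTM embryos (218 and 269 RPKM). *Luc7l3*, a splicing factor, read 6.88, 7.26 and 6.98 and then 112, 103 and 58.2 RPKM in vivo, against means of 71 and 46.3 RPKM in NTC embryos.

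For the compaction genes *Cldn4* and *Actg1* the difference between embryo types did not pass the test. *Cldn4* averaged 18.6 and 43.7 RPKM in NTC and 73.1 and 247 RPKM in NTM embryos, and its in vivo change differed from these by 0.68 (adjusted p = 0.796) and 1.5 (adjusted p = 0.36) on the log2 scale. *Actg1* averaged 117 and 444 RPKM in NTC and 226 and 769 RPKM in NTM embryos, with differences of 1.13 (adjusted p = 0.132) and 0.78 (adjusted p = 0.486). *Krt18*, a keratin of trophectoderm, was at 3.15, 3.74 and 3.02 and then 2.5, 1.62 and 0.862 RPKM in vivo, and averaged 0.685 and 21.8 RPKM in NTC and 1.71 and 19.6 RPKM in NTM embryos. Its change was more negative in vivo by 3.6 (adjusted p = 0.0373) against NTC and 4.05 (adjusted p = 0.0116) against NTM. *Zfp985* averaged 5.69 and 11.8 RPKM in NTC and 0.069 and 9.78 RPKM in NTM embryos, and its in vivo change did not pass the test of the difference from either.

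The called genes also differed in what their transcripts are made of. Median transcript GC content was 45.4% in the risen, 49.8% in the fallen and 48.7% in all tested genes. In 5 equal bins from low to high GC content the median log2 change was -0.80, -0.91, -1.14, -1.22 and -1.18, and 147, 116, 75, 45 and 72 genes were risen. Spearman's rho between log2 change and GC content was -0.14, and with transcript length 0.12 (10364 genes, a description). Genes with a named pseudogene in the annotation made up 6.11% of the risen, 2.91% of the fallen, 6.15% of the genes that stood apart and 2.52% of all tested genes. GC content moves with the result and its part was not tested, beyond the scaling that centres it.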

How the data were processed

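Single-embryo RNA-seq values of 60 libraries in 20 groups of 3 were used as the authors deposited them, as RPKM per gene. The labels name Bowtie 0.12.2 and genome build mm8, whereas the study's methods name TopHat, HTSeq and FPKM, with no strand setting given. Which of these made the deposited RPKM is not clear. Of 27238 genes, 27056 were matched to GENCODE M21 (GRCm38) for position, length and GC content. RPKM is not a count, so no count model was run. The reads on genes per library were worked out from the step between low values (74.17% to 80.71% of low values were whole reads within 0.02) and ranged from 5294167 to 47830132. Reads carry no molecular identifiers, so floors (3 reads) cover counting error only.

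Log2(RPKM + 1) was fitted in limma 3.58.1 (R 4.3.3) with a mean-variance trend, on genes with a mean of at least 0.5 RPKM in the groups compared. A call needed a Benjamini-Hochberg adjusted p under 0.05 over all tested genes and a change of 1 or more on the log2 scale, up or down. A fold change on this scale understates the change of low genes. Single measures per library were tested with an exact permutation test in Python 3.11.15. Differences between embryo types are interaction terms over 4 groups. The code was tested on simulated data. Alternatives were a pseudocount of 0.1, no filter, median-ratio scaling, nuclear genes scaled to equal sums, 1 fit over 20 groups, a replicate block, no fold threshold, leaving out libraries and, added after the data were seen, centring within bins of transcript GC content. The named genes are the 15 largest rises and 15 largest falls among called genes with a gene symbol, no overlap and at least 5 RPKM in all 3 libraries of the higher stage, the key members of 32 gene lists, up to 4 called members of each list in each direction, and up to 10 genes in each direction with the largest interaction called against both NTC and NTM. The comparison, the lists and their members were chosen with earlier results of these data known. Promoters are RefSeq windows of GRCm38.p6.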

Additional observations from a re-analysis of the deposited data

Results flagged for a closer look

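The change from the 4-cell to the 8-cell stage differed between embryo types by the interaction test. More negative in vivo were 1886 genes against NTC and 1741 against NTM, and more positive were 277 and 236. On the log2 scale and against NTC, the genes with the most positive differences among those called against both were *mt-Nd6* (5.38), *Ube2s* (5.08), *Gm2042* (4.54), *Arf6* (4.49), *Naf1* (4.43), *mt-Nd2* (4.40), *mt-Co2* (4.30), *Luc7l3* (4.22), *mt-Atp6* (3.99) and *Gm6039* (3.85). *Gm2042* had overlapping in vivo values (9.31, 4.27 and 6.48 RPKM and then 11.3, 4.66 and 10.9 RPKM), and its means went from 32.2 to 0.603 RPKM in NTC and from 9.6 to 0.0429 RPKM in NTM embryos. The most negative were *Uqcr10* (-8.61), *Gm23935* (-8.42), *Hist1h4d* (-8.16), *Gm26049* (-7.75), *Psmc5* (-7.36), *Hspa8* (-7.29), *Hist1h2ap* (-7.25), *Mt2* (-7.04), *Mt1* (-6.92) and *Dppa3* (-6.87). *Gm26049* was at 0 in all 6 nuclear transfer 4-cell embryos and averaged 31.9 RPKM in NTC and 77.7 RPKM in NTM 8-cell embryos. The 4-cell values of *Psmc5*, a proteasome ATPase, stood above those of all other libraries, at 288, 252 and 292 RPKM.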

How the results depend on the processing

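Against 458 higher and 4096 lower genes, in vivo counts were 874 and 2559 with nuclear genes scaled to equal sums, 1297 and 1792 with median-ratio scaling and 1686 and 1197 with GC centring (chosen after seeing the data). Leaving out 1 library gave 354 to 539 higher and 3319 to 3832 lower genes. In NTC embryos (0 and 6) the counts were 3 and 7 with a pseudocount of 0.1, 0 and 0 without a filter and 279 and 283 in 1 fit over 20 groups. Leaving out 1 library gave 0 to 1 and 0 to 7. In NTM embryos (17 and 18) they were 11 and 9, 0 and 0, and 195 and 299, and leaving out 1 library gave 0 to 25 and 0 to 15. Median-ratio scaling gave 578 more positive and 902 more negative genes against NTC and 457 and 859 against NTM. Leaving out 1 replicate number gave 98 to 136 and 643 to 943 against NTC and 49 to 148 and 406 to 1252 against NTM, where replicate 3 lowered the negative count least. *Rplp0*, -0.64 as deposited, was at 1.00 with GC centring. The cause of these moves was not tested.

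The replicate numbers only name the embryos. Deviations of same-numbered 4-cell and 8-cell embryos correlated at -0.017, -0.004 and -0.046, so the numbers do not pair them. With the replicate block the counts were 431 and 3649 in vivo, 3 and 17 in NTC, 50 and 32 in NTM, 243 and 1675 against NTC and 173 and 1452 against NTM.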
